A study of Mus musculus with 13 samples.

Results

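The transcripts of 10 genes that act in mitophagy and in the fusion, fission and movement of mitochondria were followed in the hippocampus of Tmem184b-mutant and wild type mice, out of 25025 genes listed at both ages. Pink1 was the starting point, because its values were higher in mutants at both ages, and the other 9 (Usp30, Bnip3, Bnip3l, Fundc1, Mfn1, Mfn2, Opa1, Dnm1l and Rhot1) were picked by their known roles, to ask whether they followed Pink1. The genotype difference of Pink1 chose the set, so the values of Pink1 are described here with no test, and the other 9 were tested for an effect of genotype. All 10 passed the filter on low values, a mean normalized count of at least 10 at the age tested.

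One RNA sequencing library was made per mouse from total RNA of dissected hippocampus. The wild type libraries came from C57BL/6 mice, 4 aged 5 months and 3 aged 15 months, bred in house as littermates where possible. The mutant libraries, 3 at each age, came from GT/GT mice that carry a gene-trap insertion in Tmem184b on the C57BL/6 background. No other allele or agent is named for either genotype, and the controls do not carry the insertion. By the level of Xist, since the labels do not give the sex of each library, the wild types were 1 female and 3 males at 5 months and 3 females at 15 months, and the mutants were 1 female and 2 males at each age, so at 15 months all wild types were female.

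Tmem184b itself stood at 1.66% of the wild type mean in 5-month mutants and at 1.74% in 15-month mutants. The authors' normalized counts, made with a separate size-factor normalization for each age, summed to between 28086279 and 32383546 per library. The reads behind each value are unknown, and levels were not tested between ages, though the genotype effect was. Transcript GC content and length moved with genotype across the whole transcriptome. Spearman's rho between a gene's GC content and its deviation from the wild type mean ran from 0.312 to 0.491 in the 3 mutants of 15 months and from -0.088 to 0.107 in their wild types. At 5 months it was 0.436 in mutant replicate 1 and lay between -0.137 and 0.206 in the other libraries. Differences of the members are therefore given as deposited and again after a correction of every library for transcript GC content and length.

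Pink1 encodes a kinase that healthy mitochondria import and destroy. When import fails it stays on the outer membrane, phosphorylates ubiquitin and sets off the ubiquitin coat that marks the organelle for engulfment by autophagy. Mitofusins join outer membranes and Opa1 joins inner membranes, whereas Dnm1l (Drp1) constricts and divides the organelle. Bnip3, Bnip3l (Nix) and Fundc1 are receptors in the outer membrane that bind the autophagy machinery directly. In neurons these systems serve mitochondria that must reach distant axons and synapses, and Rhot1 (Miro1) anchors them to motor proteins.

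Per kilobase of exon, Pink1 was the most abundant of the 10 in every group. In wild types of 5 months its normalized count per kilobase was 5636 ± 219 (SD, n = 4), followed by Mfn2 at 1512 ± 35.3 and Bnip3 at 818 ± 46.5. Bnip3l stood at 595 ± 23.5 and Dnm1l at 541 ± 16.3 per kilobase. Fundc1 stood at 345 ± 10.8, Opa1 at 255 ± 15.6, Mfn1 at 236 ± 4.71, Usp30 at 209 ± 14.8 and Rhot1 at 183 ± 7.55 per kilobase. The values of Opa1 and Mfn1 overlapped between libraries. With the longest transcript as length, Dnm1l and Bnip3l changed places, at 709 ± 21.4 and 704 ± 27.8 per kilobase. Pink1, Mfn2, Bnip3 and Bnip3l held the first 4 places in that order in the other 3 groups as well, by exon length.

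**Figure D1:**
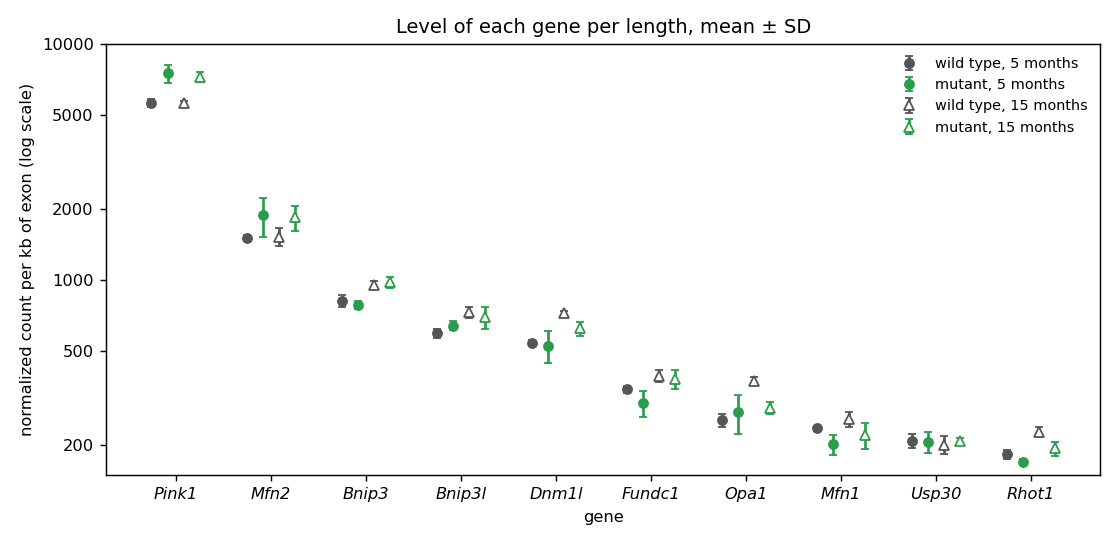
Normalized count per kilobase of exon for each gene (horizontal axis, ordered by the 5-month wild types) on a logarithmic vertical axis, as mean ± SD over 4 wild types or 3 mutants at 5 months (filled circles) and 3 of each at 15 months (open triangles), with wild types in grey and mutants in green. Pink1 is highest in every group, at 5636 in 5-month wild types and 7510 in 5-month mutants, and each age was normalized on its own.

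Pink1 (ENSMUSG00000028756.12) lies on chromosome 4 of GRCm38 from 138313409 to 138326307 on the minus strand. At 5 months its normalized counts were 14415, 15021, 15838 and 14988 in the 4 wild types and 22078, 18637 and 19508 in the 3 mutants. At 15 months they were 14971, 14559 and 15385 in wild types, against 19272, 18599 and 20446 in mutants. Every mutant was above every wild type at each age, as in 9.30% of tested genes at 5 months, 16.4% at 15 months and 3.02% at both. The mutant mean was 1.33 times the wild type mean at 5 months and 1.30 times at 15 months. Corrected for GC content and length, the log2 difference was 0.37 at 5 months and 0.16 at 15 months, and the libraries did not overlap at either age. The corrected values of the 3 mutants were 0.37, 0.36 and 0.39 above the wild type mean (log2) at 5 months and 0.14, 0.17 and 0.19 above it at 15 months. The genotype difference of Pink1 at 15 months minus that at 5 months was -0.04 as deposited and -0.21 after the correction.

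The gene next to Pink1 is Ddost, a subunit of the complex that transfers glycans to new proteins. It runs on the opposite strand and ends 781 bases from the 3′ end of Pink1, at 138312628. Its normalized counts at 5 months were 3916 to 4149 in wild types, against 4239 to 4740 in mutants, a log2 fold change of 0.15 (SE 0.069, limma adjusted p = 0.267). At 15 months the genotypes overlapped (log2 fold change 0.11, SE 0.068, limma adjusted p = 0.299). On the other side, 12117 bases away, Cda averaged 31.2 ± 5.17 (SD, n = 4) in 5-month wild types and 24.6 ± 14.2 (SD, n = 3) in mutants, and it overlapped at both ages. Mir7019, which lies within Pink1, was listed at 0 in all 13 libraries.

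The sequences upstream of 3 members are shown because the results turn on these genes, Pink1 and Mfn2 with higher values in mutants and Opa1 with lower values at 15 months. Each line holds 250 bases before the RefSeq start, from RefSeq sequence of build GRCm38.p6, read 5′ to 3′ on the strand of the gene, with any searched motif in capitals. Pink1 is chr4:138326297-138326546 on the minus strand, Mfn2 is chr4:147904910-147905159 on the minus strand and Opa1 is chr16:29579084-29579333 on the plus strand.
Pink1: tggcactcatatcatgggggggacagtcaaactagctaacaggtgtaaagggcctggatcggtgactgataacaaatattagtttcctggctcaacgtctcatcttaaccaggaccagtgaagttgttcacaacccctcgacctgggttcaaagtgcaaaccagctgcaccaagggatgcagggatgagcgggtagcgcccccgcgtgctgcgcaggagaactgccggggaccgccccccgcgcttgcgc
Mfn2: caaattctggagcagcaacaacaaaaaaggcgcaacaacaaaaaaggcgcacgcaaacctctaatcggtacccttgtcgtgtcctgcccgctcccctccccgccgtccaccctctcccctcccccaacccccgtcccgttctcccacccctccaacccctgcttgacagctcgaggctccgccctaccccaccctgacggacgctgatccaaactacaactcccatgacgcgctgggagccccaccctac
Opa1: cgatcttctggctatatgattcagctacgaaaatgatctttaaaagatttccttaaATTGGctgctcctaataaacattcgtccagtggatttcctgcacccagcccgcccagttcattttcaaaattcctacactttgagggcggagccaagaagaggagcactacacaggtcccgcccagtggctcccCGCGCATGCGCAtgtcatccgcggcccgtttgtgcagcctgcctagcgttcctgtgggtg
Of the members, 9 of 10 had a RefSeq promoter. Both strands were searched for the NRF1 consensus, a site of nuclear respiratory factor 1, which is held by 1.02% of 27025 promoters. The same windows were searched for the E-box CACGTG (6.04%) and for the CREB site TGACGTCA, held by 1.6% of promoters. The other letters searched were the FOXO site TGTTTAC (3.06%), the ETS site CCGGAAG (7.07%) and the CCAAT box (34.5%), and none of these motifs contains another. Opa1 held the NRF1 consensus, beginning 60 bases before its start, and a CCAAT box on the opposite strand, beginning 194 bases before it. Neither Pink1 nor Mfn2 held any of these motifs in this window. A looser form of the NRF1 motif, searched first, matched in Pink1, Opa1 and Bnip3, and its share of all promoters is not given here. Bnip3, whose genotypes overlapped at both ages, held an E-box and a CCAAT box. Mfn1 held a CCAAT box and an ETS site, Dnm1l a CCAAT box and Usp30 an ETS site. A match is a description of the letters and says nothing of whether a factor binds there.

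Usp30 is the deubiquitinase of the outer mitochondrial membrane that removes ubiquitin from mitochondrial proteins. Its normalized counts at 5 months were 1194, 1307, 1373 and 1189 in wild types, against 1391, 1229 and 1143 in mutants, and at 15 months 1315, 1111 and 1230 in wild types, against 1247, 1232 and 1307 in mutants. The genotypes overlapped at both ages. The log2 fold change was -0.02 (95% interval -0.22 to 0.19, limma adjusted p = 0.952) at 5 months and 0.05 (95% interval -0.14 to 0.24, limma adjusted p = 0.711) at 15 months. After correction it was -0.07 and -0.01. Usp30 has the second highest transcript GC content of the 10, 54.65%, against 58.99% for Pink1.

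Of the 3 mitophagy receptors among the members, none passed the limma test at either age, where 2.27% of all tested genes passed at 5 months and 6.02% at 15 months. At an unadjusted p under 0.05 there were also 0 of 3, beside 20.5% and 28.8% of all tested genes. Bnip3 stood at 1911, 1939, 1703 and 1860 in wild types, against 1864, 1735 and 1753 in mutants at 5 months, and at 2085, 2180 and 2244 in wild types, against 2080, 2264 and 2301 in mutants at 15 months. These values lay close together across genotypes, with a log2 fold change of -0.05 (95% interval -0.22 to 0.11) at 5 months and 0.03 (95% interval -0.13 to 0.19) at 15 months. After correction it was 0.05 and 0.04. Bnip3l stood at 2211, 2376, 2225 and 2372 in wild types, against 2353, 2557 and 2525 in the mutants of 5 months, which gave a log2 fold change of 0.11 (95% interval -0.05 to 0.27, limma adjusted p = 0.420). Its mutants overlapped the wild types through replicate 1 alone, and after correction for GC content and length they lay above them (log2 fold change 0.17, limma adjusted p = 0.119). At 15 months Bnip3l overlapped, from 2686 to 2990 in wild types, against 2464 to 3019 in mutants (log2 fold change -0.07, 95% interval -0.27 to 0.12, and 0.05 after correction).

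Fundc1, a receptor that responds to low oxygen, is on the X chromosome and has the lowest transcript GC content of the 10, 38.78%. At 5 months it stood at 802, 849, 791 and 807 in wild types, against 662, 817 and 654 in mutants. Mutant replicates 1 and 3 were below all wild types and replicate 2 was among them, a log2 fold change of -0.20 (95% interval -0.42 to 0.02, limma adjusted p = 0.289). At 15 months it ranged from 881 to 988 in wild types, against 824 to 992 in mutants, a log2 fold change of -0.05 (95% interval -0.27 to 0.16). After correction the difference was -0.09 (limma adjusted p = 0.599) at 5 months and -0.0004 at 15 months.

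Mfn1 and Mfn2, the mitofusins, had log2 fold changes of opposite sign at both ages. Mfn2 (chromosome 4, 147873599 to 147904704) also tethers mitochondria to the endoplasmic reticulum. At 5 months its normalized counts were 7924, 7849, 8031 and 7599 in wild types, against 11882, 8411 and 9037 in mutants. At 15 months they were 8267, 7117 and 8406 in wild types, against 9535, 8426 and 10755 in mutants. Every mutant was above every wild type at each age, although mutant replicate 2 of 15 months exceeded the highest wild type by little. Such a separation upward was seen in 9.30% of tested genes at 5 months, 16.4% at 15 months and 3.02% at both. The log2 fold change was 0.30 (SE 0.11, limma adjusted p = 0.143) at 5 months and 0.27 (SE 0.10, limma adjusted p = 0.119) at 15 months, so Mfn2 did not pass the test at either age.

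Corrected for GC content and length, the log2 fold change of Mfn2 was 0.26 (limma adjusted p = 0.0490) at 5 months, where 6.70% of tested genes passed, and 0.25 (limma adjusted p = 0.211) at 15 months, where 0.202% did. The corrected mutants of 15 months lay 0.23, 0.15 and 0.38 above the wild type mean on the log2 scale, and the wild types between -0.10 and 0.08. Mutant replicate 1 of 5 months, the library whose deviations followed GC content, held the highest value of Mfn2 at that age. It remained the highest after correction, when the 3 mutants lay 0.43, 0.11 and 0.25 above the wild type mean. Without replicate 1 the difference at 5 months as deposited was 0.15 (limma adjusted p = 0.141).

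Mfn1 (chromosome 3, 32529465 to 32579239) stood at 1418, 1469, 1467 and 1418 in 5-month wild types and at 1214, 1122 and 1362 in mutants. At 15 months it stood at 1712, 1529 and 1495 in wild types, against 1377, 1501 and 1171 in mutants. Mutants were below all wild types at 5 months, a separation downward that 9.23% of tested genes showed, and overlapped through replicate 2 at 15 months. The log2 fold change was -0.23 at both ages (SE 0.084 and 0.10, limma adjusted p = 0.151 and 0.173). After correction it was -0.23 (limma adjusted p = 0.114) at 5 months and -0.06 (limma adjusted p = 0.847) at 15 months.

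The ratio of Mfn2 to Mfn1 normalized counts was computed after these values were seen and is given with no test. At 5 months it was 5.59, 5.35, 5.48 and 5.36 in wild types, against 9.79, 7.50 and 6.63 in mutants. At 15 months it was 4.83, 4.66 and 5.62 in wild types, against 6.92, 5.61 and 9.18 in mutants. The mutants were higher at 5 months without overlap, and at 15 months mutant replicate 2 fell just short of the highest wild type. On values corrected for GC content and length, the log2 difference of Mfn2 over Mfn1 was 2.37 to 2.54 in wild types, against 2.85 to 3.02 in mutants at 5 months, and 2.32 to 2.57 and 2.53 to 3.02 at 15 months.

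Opa1, the GTPase that fuses inner membranes and shapes cristae, was the 1 member of the 9 tested that passed as deposited, and it was lower in 15-month mutants. It lies on chromosome 16 from 29579334 to 29654884. At 15 months its normalized counts were 3031, 3020 and 2823 in wild types, against 2283, 2400 and 2143 in mutants. Every mutant was well below every wild type, at 72.5% to 81.1% of the wild type mean. The log2 fold change was -0.38 (SE 0.072, limma adjusted p = 0.0320), beside 4.03% of all tested genes that passed downward and 17.7% that separated downward. Corrected for GC content and length it was -0.11 (SE 0.061, limma adjusted p = 0.530). The corrected values were 0.06, 0.01 and -0.08 for the wild types, against -0.06, -0.13 and -0.13 for the mutants, relative to the wild type mean on the log2 scale, and they overlapped.

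The call on Opa1 also depended on single libraries. Without wild type replicate 1, 2 or 3 or mutant replicate 1 the log2 fold change stayed between -0.41 and -0.36 but the limma adjusted p rose to between 0.107 and 0.129. With sex, read from the level of Xist, as a covariate, it was -0.37 (limma adjusted p = 0.192). Oligodendrocyte markers moved with genotype at the same age, with 3 of 7 passing the test as lower in mutants, beside 4.03% of all tested genes. These were Mog, Mobp and Cldn11, which also passed after correction, at -0.65, -0.69 and -0.57. Normalized counts of the 7 markers summed to 142213 to 164065 in wild types, against 112792 to 138258 in mutants. Fewer cells of a type and less RNA per cell cannot be told apart in whole hippocampus, and the part of these markers in the Opa1 difference was not tested. None of the 7 markers was at 0.

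At 5 months the mutants differed among themselves. Opa1 stood at 2086, 2000, 1843 and 2117 in wild types, against 1704, 2397 and 2411 in mutants. Mutant replicate 1 was the lowest library and the other mutants were the highest, a log2 fold change of 0.09 (SE 0.12, limma adjusted p = 0.711). The effect at 15 months minus that at 5 months was -0.47 (SE 0.15, limma adjusted p = 0.107), where 1.75% of tested genes passed. Leaving out mutant replicate 1 of 5 months made it -0.64 (limma adjusted p = 0.0040), and correcting all libraries for GC content and length made it -0.17 (limma adjusted p = 0.269, where 0.898% passed). For the other 8 tested members the difference between ages lay between -0.18 and 0.15, with limma adjusted p of 0.359 or more.

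Dnm1l, the dynamin-related GTPase of fission, was also lower in every 15-month mutant, though it did not pass the test. Its normalized counts were 3749, 3870 and 3722 in 15-month wild types and 3184, 3504 and 3068 in mutants. The mutants were below all wild types, with a log2 fold change of -0.22 (SE 0.071, limma adjusted p = 0.0831), and the corrected value was -0.04 (limma adjusted p = 0.801). Without mutant replicate 2, the mutant nearest the wild types, the log2 fold change was -0.27 (limma adjusted p = 0.0435). At 5 months it stood at 2901, 2829, 2697 and 2825 in wild types, against 2299, 2792 and 3152 in mutants, which lay on both sides of them (log2 fold change -0.05, limma adjusted p = 0.841). Rhot1, the GTPase that links mitochondria to kinesin, stood at 1715, 1764 and 1601 in 15-month wild types and at 1452, 1529 and 1336 in mutants. They did not overlap, with a log2 fold change of -0.24 (SE 0.080, limma adjusted p = 0.0944) and a corrected value of -0.06 (limma adjusted p = 0.769). At 5 months Rhot1 stood at 1311, 1305, 1404 and 1406 in wild types, against 1226, 1284 and 1277 in mutants, also without overlap (log2 fold change -0.10, limma adjusted p = 0.476). Separation downward, as for Dnm1l and Rhot1, was seen in 17.7% of tested genes at 15 months and in 9.23% at 5 months.

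**Figure D2:**
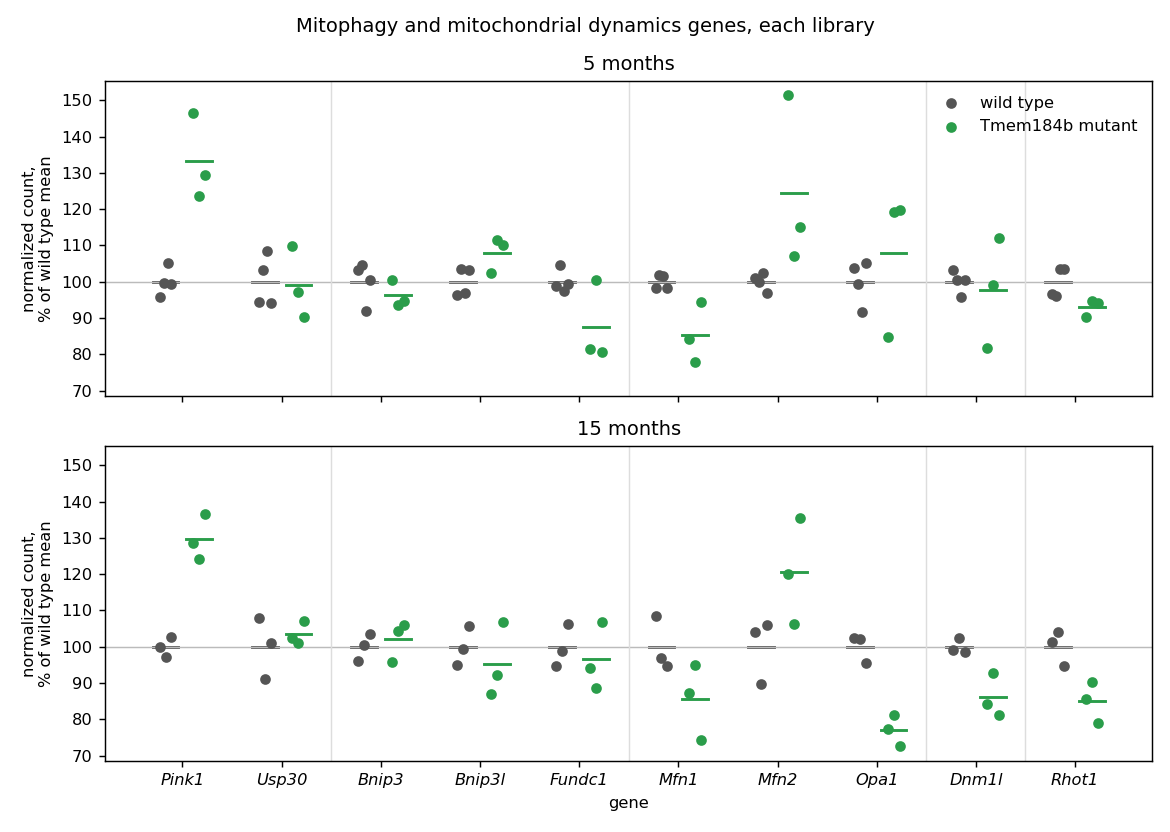
Normalized count of each gene (horizontal axis, grouped by role) as a percent of the wild type mean of the same age (vertical axis), with 1 point per library, grey for wild type and green for mutant, and a bar at each group mean. Pink1 and Mfn2 lie above 100% in all mutants at both ages, whereas all 15-month mutants lie below all wild types for Opa1, Dnm1l and Rhot1.

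Counted together, 0 of the 9 tested members passed at 5 months, where 2.27% of all tested genes did, and 1 of 9 at 15 months, where 6.02% did. At 5 months 1 of 9 had all mutants above all wild types and 2 had them below, and 6 overlapped, where 18.5% of tested genes did not overlap. At 15 months 1 of 9 was above, 3 were below and 5 overlapped, where 34.1% of tested genes did not overlap. The median log2 fold change of the 9 was -0.04 at 5 months and -0.07 at 15 months, beside 0.00 and 0.02 over all tested genes. After correction it was 0.00 and -0.01. At an unadjusted limma p under 0.05 there were 2 of 9 at 5 months (Mfn1 and Mfn2), beside 20.5% of all tested genes, and 5 of 9 at 15 months (Mfn1, Mfn2, Opa1, Dnm1l and Rhot1), beside 28.8%.

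**Figure D3:**
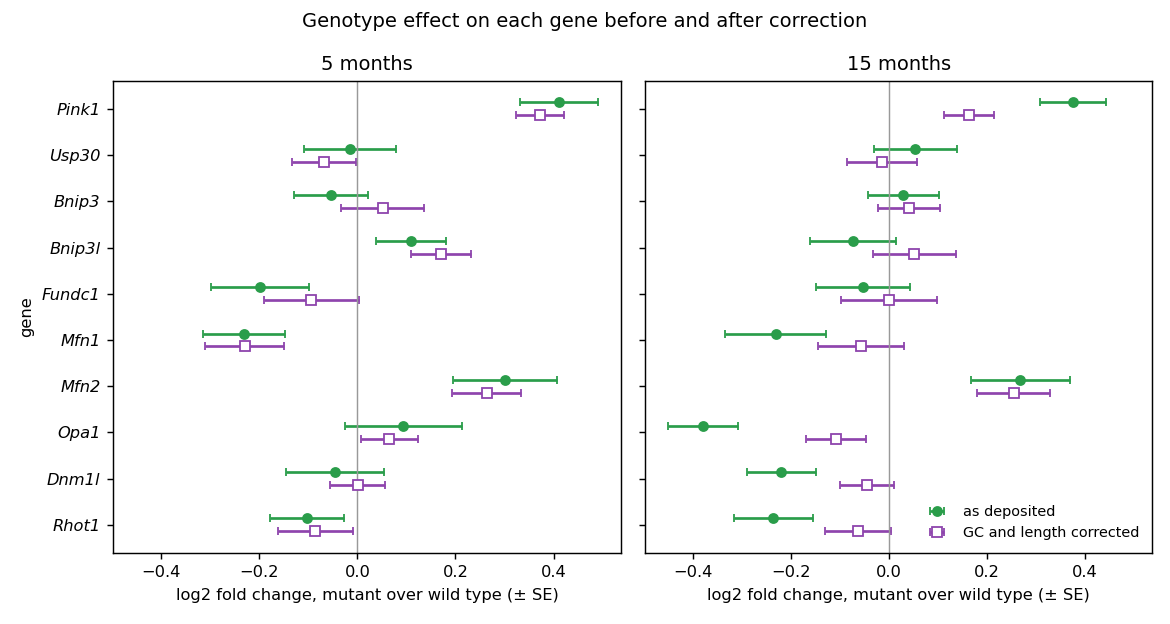
Log2 fold change of mutant over wild type (horizontal axis) for each gene (vertical axis) at 5 and 15 months, as deposited (green circles) and after correction of each library for transcript GC content and length (open purple squares), with bars of 1 standard error. At 15 months Opa1 moves from -0.38 to -0.11 and Pink1 from 0.38 to 0.16, whereas Mfn2 moves from 0.27 to 0.25.

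The members differ widely in GC content, and at 15 months the sign of their differences went with it for all but Bnip3. The longest transcript of Pink1 is 58.99% GC, Usp30 54.65% and Mfn2 53.14%, and these 3 had positive log2 fold changes. Mfn1 (45.88%), Rhot1 (43.76%), Opa1 (43.55%), Bnip3l (41.85%), Dnm1l (40.90%) and Fundc1 (38.78%) had negative ones, and that of Bnip3 (41.63%) was 0.03. Among these the size did not follow GC content, with -0.05 for Fundc1 and -0.23 for Mfn1. Over all tested genes, the group with the lowest GC content, of 10 of like size, had a median log2 fold change of -0.20 at 15 months and the group with the highest 0.24. At 5 months these medians were -0.06 and 0.07. At 15 months Opa1 lay below the lower quartile of its GC content group (-0.32). Mfn2 lay above the upper quartile of its own (0.20), as did Pink1 (0.32) and Bnip3 (-0.04).

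**Figure D4:**
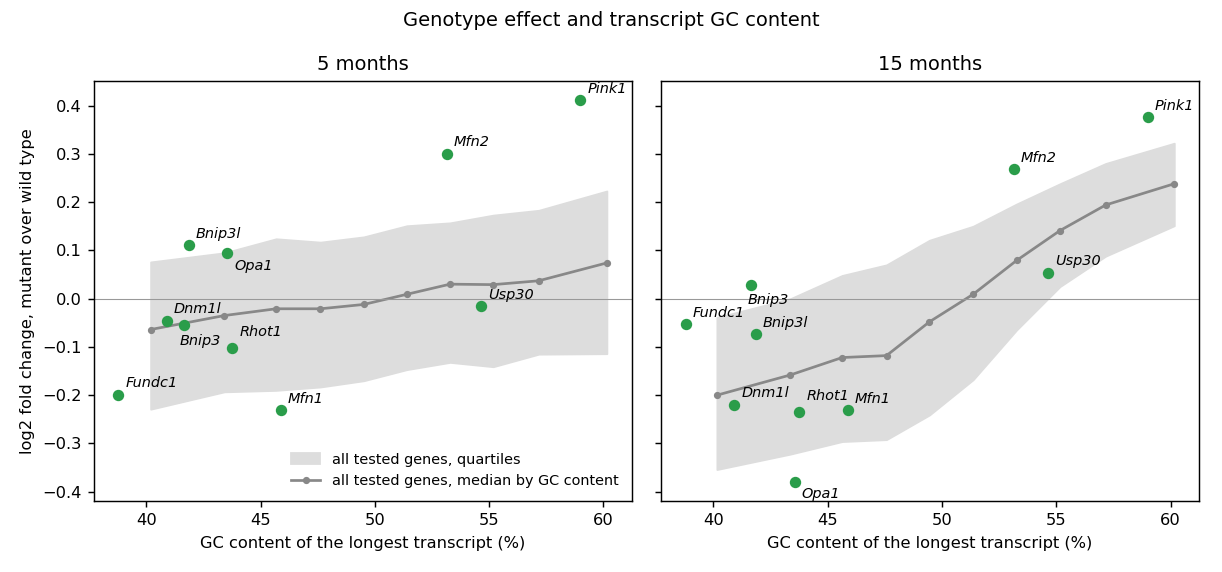
Log2 fold change of mutant over wild type (vertical axis) against the GC content of the longest transcript in percent (horizontal axis) for the 10 genes (green points) at 5 and 15 months, with the median (grey line) and quartiles (grey band) of all tested genes in 10 groups of rising GC content. The grey line climbs from -0.20 to 0.24 at 15 months and from -0.06 to 0.07 at 5 months.

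Across the 13 libraries, with log2 values centred within age, the correlation with Pink1 describes how far each member followed it. Pearson's r was 0.88 for Mfn2, rank 257 of 12083 genes with a mean of at least 100 at both ages. It was 0.30 for Usp30, 0.17 for Bnip3l and -0.09 for Bnip3. It was negative for Opa1 (-0.50), Fundc1 (-0.55), Dnm1l (-0.66), Mfn1 (-0.76) and Rhot1 (-0.80). With values centred within genotype and age, which takes the genotype difference out, r was 0.90 for Mfn2, -0.92 for Opa1, -0.81 for Dnm1l and 0.73 for Usp30. It was weaker than before for Rhot1 (-0.45), Mfn1 (-0.21), Fundc1 (-0.12) and Bnip3l (0.06), and 0.14 for Bnip3. The values centred within age hold the genotype split, and the libraries differed in their GC content trend, so these values carry no test.

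The 5 genes most like Pink1 by that measure were Jph4 (r = 0.97), Phyhip (0.97), Mepce (0.97), Usf1 (0.97) and Eif3d (0.96). Jph4 encodes a junctophilin that holds the endoplasmic reticulum to the plasma membrane, Usf1 an E-box transcription factor and Eif3d a subunit of a translation initiation factor. Their likeness was defined by the libraries compared here, so their genotype differences are values only. As deposited, the log2 differences at 5 and 15 months were 0.39 and 0.32 for Jph4, 0.27 and 0.28 for Phyhip, 0.25 and 0.21 for Mepce, 0.24 and 0.29 for Usf1 and 0.23 and 0.19 for Eif3d. After correction those of 5 months were 0.29, 0.22, 0.18, 0.24 and 0.24, beside 0.37 for Pink1, and those of 15 months 0.07, 0.08, -0.02, 0.13 and 0.05, beside 0.16. Their transcripts hold 60.33% GC for Jph4, 58.21% for Phyhip, 59.72% for Mepce, 56.02% for Usf1 and 54.61% for Eif3d.

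The wider pathway was read from gene lists chosen with earlier results known. Of all tested genes, 1.12% passed upward and 1.15% downward at 5 months, and 1.99% and 4.03% at 15 months. After correction for GC content and length 6.70% passed at 5 months and 0.202% at 15 months. Counts at an unadjusted p under 0.05 are to be read against 20.5% of all tested genes at 5 months and 28.8% at 15 months. Of 17 genes of PINK1 import and processing, 1 passed at 5 months and 1 at 15 months. Timm44, a part of the import motor, fell at 5 months from 1231 to 1434 in wild types to 984 to 1085 in mutants (log2 fold change -0.38, limma adjusted p = 0.0444) and remained below after correction (-0.36, limma adjusted p = 0.0205). Tomm40, the outer membrane pore, rose at 15 months (log2 fold change 0.28, limma adjusted p = 0.0498), and its corrected value was 0.04 (limma adjusted p = 0.851). Timm23 passed at 5 months only after correction, as higher in mutants (0.23, limma adjusted p = 0.0461).

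Of 20 genes of the PINK1 pathway, 0 passed by limma at 5 months, with 6 at an unadjusted p under 0.05, and 3 passed at 15 months, all lower in mutants. Lrrk2, a kinase mutated in Parkinson's disease, stood at 401, 424 and 429 in wild types, against 271, 310 and 293 in mutants (log2 fold change -0.52, limma adjusted p = 0.0377). Vps13d, a lipid transfer protein needed to clear mitochondria, had a log2 fold change of -0.50 (limma adjusted p = 0.0390) and Huwe1, a ubiquitin ligase encoded on the X chromosome, one of -0.34 (limma adjusted p = 0.0417). After correction their values were -0.20, -0.10 and 0.07, and none of the 20 passed at 15 months. At 5 months 2 of the 20 passed after correction as higher in mutants, where 6.70% of all tested genes passed.

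Of 14 tested mitophagy receptors and adaptors, which leave out the members, 0 passed by limma at 5 months, with 3 at an unadjusted p under 0.05, and 2 passed at 15 months. Fkbp8, a receptor of the outer membrane, rose with a log2 fold change of 0.27 (limma adjusted p = 0.0439) and Nbr1, a ubiquitin-binding adaptor, fell with one of -0.40 (limma adjusted p = 0.0344). Their corrected values were 0.01 and -0.23, and neither passed. At 5 months 1 of the 14 passed after correction, Fkbp8 (log2 fold change 0.23, limma adjusted p = 0.035), where 6.70% of all tested genes passed. Of 26 core autophagy genes 0 passed by limma at either age, with 4 at an unadjusted p under 0.05 at 5 months and 9 at 15 months, and the median log2 fold change was 0.02 at both. After correction 1 rose and 1 fell at 5 months, the latter Atg16l1 (-0.23, limma adjusted p = 0.0436), and 0 passed at 15 months.

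Of 12 tested fission genes, 0 passed by limma at 5 months, with 1 at an unadjusted p under 0.05, and 1 passed at 15 months, Fis1, an outer membrane adaptor (3912, 4410 and 4049 in wild types, against 4945, 5063 and 4947 in mutants). Its log2 fold change was 0.28 (limma adjusted p = 0.0483), opposite in sign to that of Dnm1l, and 0.08 (limma adjusted p = 0.612) after correction. Of 19 further genes of fusion and cristae 0 passed by limma at either age, with 3 at an unadjusted p under 0.05 at 5 months and 7 at 15 months. Of 15 transport genes, 0 passed by limma at 5 months, with 5 at an unadjusted p under 0.05, and 4 passed at 15 months. The kinesin motor genes Kif5b (log2 fold change -0.40), Kif5c (-0.34) and Kif1b (-0.34) fell and the kinesin light chain gene Klc2 rose (0.27), with limma adjusted p from 0.0354 to 0.0463. After correction these were -0.13, -0.09, -0.002 and 0.02, and none passed. At 5 months 1 of the 15 transport genes rose after correction, where 6.70% of all tested genes passed.

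As deposited, nuclear genes for subunits of the respiratory chain and ATP synthase leaned upward at 15 months. Of 74 tested, 8 rose and 0 fell, beside 1.99% of all tested genes upward, and 41 had all mutants above all wild types, beside 16.4% of all tested genes. The median log2 fold change was 0.22, beside 0.02 over all genes, and 0.06 after correction, when none passed. Their transcripts are short, with a median of 913 bases. Ndufb9 and Uqcrc1 had log2 fold changes of 0.30 and 0.28 (limma adjusted p = 0.0387 and 0.0408). At 5 months 1 of the 74 rose and 1 fell, with a median of -0.02. After correction 8 rose and 1 fell at 5 months, where 6.70% of all tested genes passed. The corrected median at 5 months was 0.06, as at 15 months. Cox8a, a subunit of cytochrome oxidase, fell from 15325 to 16553 in wild types to 9800 to 12321 in mutants (log2 fold change -0.48, limma adjusted p = 0.0313), and it also passed after correction (-0.41, limma adjusted p = 0.0107). Ndufs5 rose (log2 fold change 0.89, limma adjusted p = 0.0010), but its value is uncertain. The pseudogene BC002163, a near-identical copy of Ndufs5, had a log2 fold change of -5.65. Whether counting split reads between them was not tested. The 15-month mutants held 4881, 2583 and 21.0 of Ndufs5. The 13 genes of the mitochondrial genome were not analysed here.

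Of 17 genes of mitochondrial biogenesis 0 passed by limma at either age, with 1 at an unadjusted p under 0.05 at 5 months and 5 at 15 months. Ppargc1b, a coactivator of mitochondrial genes, stood at 654, 664 and 543 in 15-month wild types and 438, 503 and 409 in mutants (log2 fold change -0.46, limma adjusted p = 0.0534, and -0.65 with limma adjusted p = 0.120 after correction). Of 16 tested genes of the mitochondrial stress response, 1 rose at 5 months, the transcription factor Atf5 (log2 fold change 0.42, limma adjusted p = 0.0386, and 0.37 with limma adjusted p = 0.0188 after correction), and 0 passed at 15 months, with 3 at an unadjusted p under 0.05. At 5 months 6 of the 16 had an unadjusted p under 0.05. After correction 3 rose at 5 months, Atf5, Phgdh (0.27, limma adjusted p = 0.0227) and Clpp (0.22, limma adjusted p = 0.0408), where 6.70% of all tested genes passed. Of 16 targets of the hypoxia factor HIF, which leave out the members, 1 rose at 5 months, Egln1 (log2 fold change 0.33, limma adjusted p = 0.0459, and 0.30 with limma adjusted p = 0.0555 after correction), an oxygen-sensing hydroxylase, and 0 passed at 15 months, with 4 at an unadjusted p under 0.05. At 5 months 11 of the 16 had negative log2 fold changes, with a median of -0.08, and 3 had an unadjusted p under 0.05. After correction 1 of the 16 passed at 5 months, Vegfa, which was lower in mutants (log2 fold change -0.55, limma adjusted p = 0.0271). Of 13 tested FOXO factors and targets, 0 passed by limma at 5 months, with 4 at an unadjusted p under 0.05, and 3 passed at 15 months. Foxo3, a factor known to drive mitophagy genes in muscle, fell from 352 to 369 in wild types to 131 to 237 in mutants (log2 fold change -1.06, limma adjusted p = 0.0319), Fbxo32 fell (-0.67, limma adjusted p = 0.0320) and Foxo6 rose (0.47, limma adjusted p = 0.0337). After correction these were -0.96, -0.39 and 0.12, and none passed (limma adjusted p = 0.0999 for Foxo3).

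No marker of neurons, astrocytes, oligodendrocytes, microglia or endothelium was at 0 in any group of libraries. The 10 neuron markers summed to 292800 to 311595 in wild types, against 313533 to 358516 in mutants at 5 months, and to 322376 to 357898 and 344742 to 375803 at 15 months. At 15 months 1 of the 10 neuron markers rose, Rbfox3 (log2 fold change 0.29, limma adjusted p = 0.0497), beside 1.99% of all tested genes. Of the 10, 1 fell, Gad2 of inhibitory neurons (-0.52, limma adjusted p = 0.0393), beside 4.03%. After correction these were 0.08 and -0.27, and neither passed. As deposited, 6 of the 10 had all mutants below all wild types, beside 17.7% of all tested genes, and 2 had them above, beside 16.4%. Their median log2 fold change at 15 months was -0.14, although the sums, which follow the most abundant markers, averaged higher in mutants. Of 8 astrocyte markers, 1 rose at 5 months, Gfap (log2 fold change 0.54, limma adjusted p = 0.0235, and 0.53 after correction), beside 1.12% of all tested genes. At 15 months 0 of the 8 passed, with 2 at an unadjusted p under 0.05.

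The 12 choroid plexus markers, from tissue that adjoins the hippocampus, summed to 90465, 6567, 103891 and 195315 in 5-month wild types and to 2672 to 7005 in mutants. Of the 12, 5 passed as lower in mutants, beside 1.15% of all tested genes. At 15 months the 12 markers summed to 3933 to 5189 in wild types and to 3984, 2845 and 36064 in mutants. The 5 blood markers summed to 19628 to 28382 in 15-month wild types and to 12782, 17513 and 189306 in mutants. Mutant replicate 3 of 15 months thus stood apart in both lists, and it also held the highest Pink1 and Mfn2 and the lowest Mfn1, Opa1, Dnm1l and Rhot1 of its age. Without it the log2 difference at 15 months was 0.34 for Pink1, 0.18 for Mfn2, -0.13 for Mfn1, -0.34 for Opa1 (limma adjusted p = 0.0235), -0.18 for Dnm1l and -0.18 for Rhot1. The part of any cell type in the members' differences was not tested.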

How the data were processed

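RNA of 13 mouse hippocampi was sequenced, 1 library per mouse. Per the paper's methods and the labels, the authors quantified reads with Salmon 0.11.1 against mm10 and normalized them with DESeq2. The deposited values are signal values, gene counts divided by size factors, in a separate table for each age. Between 84.2% and 93.3% of low values came out as whole reads, so reads were not recovered and the depth is unknown. Columns of the authors' own comparisons were not used.

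Members and gene lists were chosen with earlier results of these data known. Groups came from the sample labels. Genes with a mean of at least 10 at the age tested were fitted with limma 3.58.1 (R 4.3.3) on log2(value + 1), each age alone and without a replicate block, with Benjamini-Hochberg adjustment over all tested genes and a threshold of 0.05. Fold changes are on that scale. The difference between ages was an interaction term over 13 libraries. Intervals are at 95%. A loess correction (span 0.3) for GC content and length of the longest transcript used the GENCODE M21 annotation of GRCm38. The numbers of the mice did not pair them, since same-numbered libraries did not deviate together. Sex was read from Xist (above 1000, female). Named were the members, up to 4 genes per list called as deposited or after correction, the tested neighbours of Pink1 and the 5 genes most like it. Ppargc1b and the Mfn2 to Mfn1 ratio were chosen after their values were seen. Motifs were also chosen with results known, and a looser form of the NRF1 motif, searched first, matched in Pink1, Opa1 and Bnip3. 1 gene in each of 2 gene lists is not reported here. Scripts were tested on simulated data. Alternatives were the pseudocount, filter, scaling, correction, replicate block and each mouse left out. Tables and plots were made in Python 3.11.15 with pandas 2.3.3, numpy 2.4.6 and matplotlib 3.10.9.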

Additional observations from a re-analysis of the deposited data

Results flagged for a closer look

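In 3 of 42 groups of 4 wild types examined at 5 months, 1 library lay far from the others, where chance gives about 2.1. The value is the gap of that library over the range of the group, read against Dixon's 95% critical value for 4 samples. For Kif5b it was 0.861, with replicate 3 at 1732 and the others at 2200 to 2276. For Mobp, an oligodendrocyte marker, it was 0.934, with replicate 1 at 17447 and the others at 27715 to 28439. For Eif3d it was 0.882, with replicate 4 at 2558 and the others at 2695 to 2713.

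Of the named genes, 5 had a genotype effect that differed between ages by the limma interaction test (log2, 15 months minus 5 months). Many of the named genes were picked from their lists for a genotype effect at either age in these same libraries. For Ppargc1b the values were known before it was picked. Such a choice favours a difference between ages, so the count cannot be read against the 268 of all tested genes (1.75%) that differed. Huwe1 differed by -0.49 (limma adjusted p = 0.0342), and its effects after correction for GC content and length were 0.02 at 5 months and 0.07 at 15 months. Kif5c differed by -0.60 (limma adjusted p = 0.0450), with corrected effects of 0.21 and -0.09. Ppargc1b differed by -0.84 (limma adjusted p = 0.0453), with corrected effects of 0.32 and -0.65. Foxo3 differed by -1.86 (limma adjusted p = 0.0435), with corrected effects of 0.72 and -0.96. Cox8a differed by 0.74 (limma adjusted p = 0.0450), with corrected effects of -0.41 and 0.02.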

How the results depend on the processing

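Depth is unknown, groups hold 3 or 4 mice, and at 15 months all wild types were female. Values close to the threshold moved with the processing, and the cause was not tested. For the genotype effect at 5 months, 354 called genes became 725 in one fit of all 13 libraries and 1028 after GC content and length correction, and 7 (without wild type replicate 3) to 901 (without mutant replicate 2) with 1 mouse left out. For the genotype effect at 15 months, 935 became 189 in one fit, 578 with no filter, 31 after the correction, 2 with sex as a covariate (chosen after seeing the data) and 1 (without wild type replicate 3) to 1526 (without mutant replicate 2). For the difference of the genotype effect between ages (the interaction), 268 became 136 after the correction and 34 to 2111 with 1 mouse left out. Of the 9 tested members, 0 called at 5 months became 1 (Mfn2) after the correction. The 1 called at 15 months (Opa1) became 0 in one fit, after the correction and with the sex covariate, and 0 to 2 with 1 mouse left out. In the interaction the count of 0 ran from 0 to 1. Replicate numbers shared by the genotypes did not pair the mice (correlations of same-numbered libraries -0.091 to 0.058 at 5 months and 0.013 to 0.164 at 15 months). With the replicate block, the calls were 9 at 5 months, 1595 at 15 months and 3 in the interaction, with 2 members at 15 months. With the replicate block and the correction together they were 89, 10 and 7, with 0 members at 15 months. Of 1322 recomputed log2 fold changes of named genes, 1030 kept their direction and side of the threshold. For Pink1, which has no test, this meant a move of under 1 SE. Of the rest, 218 kept the direction but no longer passed, 23 newly passed, 6 of Pink1 moved further and 45 changed sign. After the correction they were 0.001 for Dnm1l and 0.051 for Bnip3 at 5 months, 0.052 for Bnip3l, -0.014 for Usp30, 0.067 for Huwe1, -0.043 for Ddost, -0.078 for Cda and -0.024 for Mepce at 15 months, and -0.01 for Bnip3 and 0.023 for Rhot1 in the interaction. With the replicate block added these were 0.002, 0.059, 0.052, -0.014, 0.067, -0.043, -0.078, -0.024, -0.018 and 0.008. Quantile normalization gave 0.012 for Pink1 in the interaction and -0.001 for Bnip3 at 15 months. The sex covariate gave -0.002 for Mfn1 and 0.081 for Mfn2 in the interaction and -0.06 for Bnip3 at 15 months. With 1 mouse left out the ranges that crossed 0 were -0.087 to 0.035 for Pink1, -0.08 to 0.099 for Mfn1 and -0.132 to 0.117 for Mfn2 in the interaction, -0.151 to 0.077 for Dnm1l, -0.092 to 0.049 for Usp30 and -0.91 to 0.023 for Cda at 5 months, and -0.128 to 0.006 for Fundc1, -0.011 to 0.11 for Usp30 and -0.088 to 0.502 for Cda at 15 months.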
